A study of Mus musculus with 6 samples.

Results

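The genes of 6 neural POU transcription factors, Pou3f1, Pou3f2, Pou3f3, Pou2f1, Pou4f1 and Pou4f2, were followed through the accessible chromatin of mouse neural stem/progenitor cells (NSPCs) with and without the Sox2 enhancer cluster SRR2-18. A listed region of accessible chromatin was assigned to one of these genes when its strongest summit had that gene as the nearest protein-coding transcription start site (TSS), at most 50 kb away. This gave 44 of 82885 regions in parent NSPCs and 37 of 107480 regions in ΔSRR2-18 NSPCs, or 60 of 150251 separate loci when overlapping regions of both lists were counted once. Of these loci, 21 (35.0%) were open in both lists, 23 (38.3%) in the parent list alone and 16 (26.7%) in the ΔSRR2-18 list alone. Over all 150251 loci the same shares were 26.0%, 28.9% and 45.1%. Counted per list instead, 52.3% of all parent regions and 63.1% of all ΔSRR2-18 regions overlapped no region of the other list.

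The measurements came from ATAC-seq, in which the transposase Tn5 cuts chromatin where it is accessible. Both groups were NSPCs differentiated from embryonic stem cells (ESCs) of a 129S1/Cast F1 hybrid and grown with EGF and bFGF. The parent group was 3 cultures of clone 5B, whose genotype is Sox2-mCherry (129) with no deletion, and the ΔSRR2-18 group was 3 cultures of clone 47D, in which Cas9 and guide RNAs removed SRR2-18 on both alleles. Each genotype was thus 1 clone, so genotype and clone cannot be told apart, and each was deposited as 1 pooled peak list, so no difference below has a replicate check. The labels give 30000 cells and a depth of 50 to 60 M reads per culture.

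The lists themselves were as follows. Summit reads solved from the deposited values came out whole, and the genome-wide mean number of reads expected at a base, taken as the lowest background, was 38.8 for parent and 19.7 for ΔSRR2-18 NSPCs, a depth ratio of 1.98. Summit heights are therefore given below as reads at the highest summit divided by that mean. Each list has its own highest summit, so the summits compared at a shared locus can lie apart. The span between the outer guide RNA sites (mm10 chr3:34653730-34670060) held 4 regions in the parent list and 0 in the ΔSRR2-18 list. Promoters of 7 of 7 NSPC markers and of 0 of 4 pluripotency markers were open in both lists. Of 4 neuronal markers, 2 promoters were open in the parent list and 3 in the ΔSRR2-18 list, which added Rbfox3, and 2 of 4 mesodermal promoters (Tbx6 and Foxc2) were open in both. The part of such other cells in the differences below was not tested.

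POU factors bind DNA through a bipartite domain, a POU-specific domain and a POU homeodomain, which together read the octamer and related sequences. The class III genes Pou3f1 (Oct6), Pou3f2 (Brn2) and Pou3f3 (Brn1) each have a single coding exon, are expressed in neural progenitors and migrating neurons, and can bind beside SOX2 on composite elements. Pou2f1 (Oct1) is a broadly expressed class II gene. The class IV genes Pou4f1 (Brn3a) and Pou4f2 (Brn3b) act in postmitotic sensory neurons and retinal ganglion cells. In the counts and ratios below, the class names stand for these genes only. Their paralogs, such as Pou3f4 and Pou4f3, are read with the other POU genes.

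In mm10 the genes lie on chromosome 4 (Pou3f1, chr4:124656807-124660655, plus strand; Pou3f2, chr4:22482780-22488366, minus strand), chromosome 1 (Pou3f3, chr1:42695768-42703176, plus strand; Pou2f1, chr1:165865154-166002678, minus strand), chromosome 14 (Pou4f1, chr14:104461676-104467999, minus strand) and chromosome 8 (Pou4f2, chr8:78433010-78436645, minus strand). Distances below run along the gene from its nearest annotated TSS, with negative values upstream, and Pou2f1 has 7 annotated start sites in the set used.

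The sequences at the summits that the results turn on are shown first, each with 100 reference bases on either side of a summit, on the plus strand, from the C57BL/6 reference and not from the 129S1 or Cast alleles. Capitals mark exact matches, on either strand, to 4 motifs, ATGCNAAT (POU, octamer-like), ACAATGG (SOX), TGACTCA (AP-1) and TGATTNAT (HOX-PBX). The first sequence carries the largest parent excess at a locus open in both lists (Pou3f2 -6793, chr4:22495059-22495259). The second is from the region of the parent list alone with the highest fold enrichment (Pou2f1 -13437, chr1:165948285-165948485). The third is from the TSS region with the highest fold enrichment in the parent list (Pou2f1 -251, chr1:165935099-165935299).
Pou3f2 -6793: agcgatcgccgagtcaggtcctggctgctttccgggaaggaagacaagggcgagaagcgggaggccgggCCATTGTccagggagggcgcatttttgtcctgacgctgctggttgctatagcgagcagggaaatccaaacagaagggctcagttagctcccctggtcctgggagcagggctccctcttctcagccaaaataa
Pou2f1 -13437: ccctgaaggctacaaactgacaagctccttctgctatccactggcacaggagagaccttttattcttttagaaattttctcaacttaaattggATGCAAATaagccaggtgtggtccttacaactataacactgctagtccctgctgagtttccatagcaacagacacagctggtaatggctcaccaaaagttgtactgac
Pou2f1 -251: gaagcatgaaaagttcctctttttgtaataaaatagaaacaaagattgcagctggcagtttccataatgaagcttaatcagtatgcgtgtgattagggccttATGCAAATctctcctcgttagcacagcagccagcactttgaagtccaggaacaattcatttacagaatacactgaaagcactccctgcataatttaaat

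The other 4 sequences carry the excess in ΔSRR2-18 NSPCs. The first is the largest ΔSRR2-18 excess at a locus open in both lists (Pou2f1 -41282, the summit of the ΔSRR2-18 list, chr1:166043860-166044060). The others are the 3 regions of the ΔSRR2-18 list alone with the highest fold enrichment. These are Pou2f1 -6490 (chr1:166009068-166009268), Pou4f1 -24639 (chr14:104492538-104492738) and Pou3f1 +7956 (chr4:124664663-124664863). The last pair was added after its values were seen.
Pou2f1 -41282: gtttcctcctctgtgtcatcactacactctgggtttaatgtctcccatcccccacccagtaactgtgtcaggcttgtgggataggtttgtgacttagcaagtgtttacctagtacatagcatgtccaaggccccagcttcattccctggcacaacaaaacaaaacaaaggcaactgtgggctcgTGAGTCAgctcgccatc
Pou2f1 -6490: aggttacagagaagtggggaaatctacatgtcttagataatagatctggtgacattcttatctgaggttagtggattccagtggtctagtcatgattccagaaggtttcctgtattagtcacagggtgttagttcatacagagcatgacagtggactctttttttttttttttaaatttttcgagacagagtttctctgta
Pou4f1 -24639: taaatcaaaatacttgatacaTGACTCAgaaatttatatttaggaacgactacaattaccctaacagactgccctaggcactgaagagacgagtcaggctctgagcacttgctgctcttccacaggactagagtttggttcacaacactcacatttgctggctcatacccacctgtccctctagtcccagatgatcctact
Pou3f1 +7956: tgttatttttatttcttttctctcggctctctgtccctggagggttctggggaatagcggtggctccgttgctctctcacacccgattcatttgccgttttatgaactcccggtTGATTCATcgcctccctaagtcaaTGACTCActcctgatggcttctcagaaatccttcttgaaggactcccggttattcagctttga

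All 6 genes had an open TSS region in both lists. Among TSS regions open in both lists, those of Pou3f1, Pou3f2 and Pou3f3 were the most unequal. In the parent list alone were TSS regions at Pou3f3 (-831 bp, height 55.7) and at an internal Pou2f1 start (-251 bp, height 62.2). At Pou3f2 the TSS region (chr4:22487749-22488928 in the parent list) reached 7138 reads, a height of 184, in parent NSPCs and 572 reads, a height of 29.1, in ΔSRR2-18 NSPCs. The ratio of ΔSRR2-18 to parent height was 0.158 (95% interval, 0.145–0.172), and 0.287% of shared promoter loci of all genes had a lower one. At Pou3f1 the TSS region (chr4:124656516-124658339, with its summit in the exon 650 bp downstream of the start) had a height of 180 in the parent list and 43.2 in the ΔSRR2-18 list, a ratio of 0.241 (0.224–0.258). At Pou3f3 the region over the start (chr1:42695366-42696057) had a height of 121 in the parent list and 32.8 in the ΔSRR2-18 list, a ratio of 0.272 (0.250–0.295). These intervals, here and below, are exact conditional intervals that cover counting error only. In bulk chromatin, fewer cells with an open region and a less open region per cell cannot be told apart.

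The TSS regions of Pou2f1, Pou4f1 and Pou4f2 open in both lists were less unequal. The shared Pou2f1 TSS region (chr1:166002521-166003683) had a height of 90.2 in the parent list and 52.9 in the ΔSRR2-18 list, a ratio of 0.586 (0.546–0.628). Its summit lay at -796 bp in the parent list and at -51 bp in the ΔSRR2-18 list, so this ratio does not compare a single position. At Pou4f1 (chr14:104467291-104468391) the heights were 41.9 in the parent list and 20.6 in the ΔSRR2-18 list, a ratio of 0.491 (0.439–0.548). At Pou4f2 (chr8:78436049-78436966) they were 31.4 and 19.7, a ratio of 0.628 (0.559–0.704). Promoters of all genes leaned the same way, with a median ratio of 0.724 over 12545 shared promoter loci (quartiles, 0.589–0.875) and 84.1% of them below 1. The Pou2f1, Pou4f1 and Pou4f2 ratios stood at the 24.4, 12.4 and 31.3 percentiles of those promoters, while those of Pou3f1 and Pou3f3 stood at 1.08 and 1.61. Of the 7 member promoter loci found in both lists, 5 were at least 2-fold lower in ΔSRR2-18 NSPCs (71.4%), a class that took 13.3% of all shared promoter loci.

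The lower heights around the class III genes extended beyond their start sites. All 12 loci of Pou3f1, Pou3f2 and Pou3f3 open in both lists had a ratio below 1. Their ratios ran from 0.124 to 0.558 with a median of 0.330. Of the 39072 shared loci of all genes, 61.2% also had a ratio below 1. Pou3f4, the class III gene outside the 6, had a TSS region with a ratio of 2.22. Of the 12, 9 were at least 2-fold lower in ΔSRR2-18 NSPCs, as were 16.0% of all shared loci. In the optimal lists, 13 of 15 class III loci were below 1, and the other 2, both at Pou3f1, were at least 2-fold higher. Over all 6 POU genes, 10 of 21 shared loci were at least 2-fold lower (47.6%; 95% Wilson interval, 28.3–67.6). Wilson intervals, here and below, treat loci or regions as independent draws, although several lie close together at the same gene. They hold no variation between cultures and compare no genotypes. The median ratio was 0.511 over the 21 loci and 0.848 over all shared loci, which is -0.24 on the log2 scale.

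**Figure D1:**
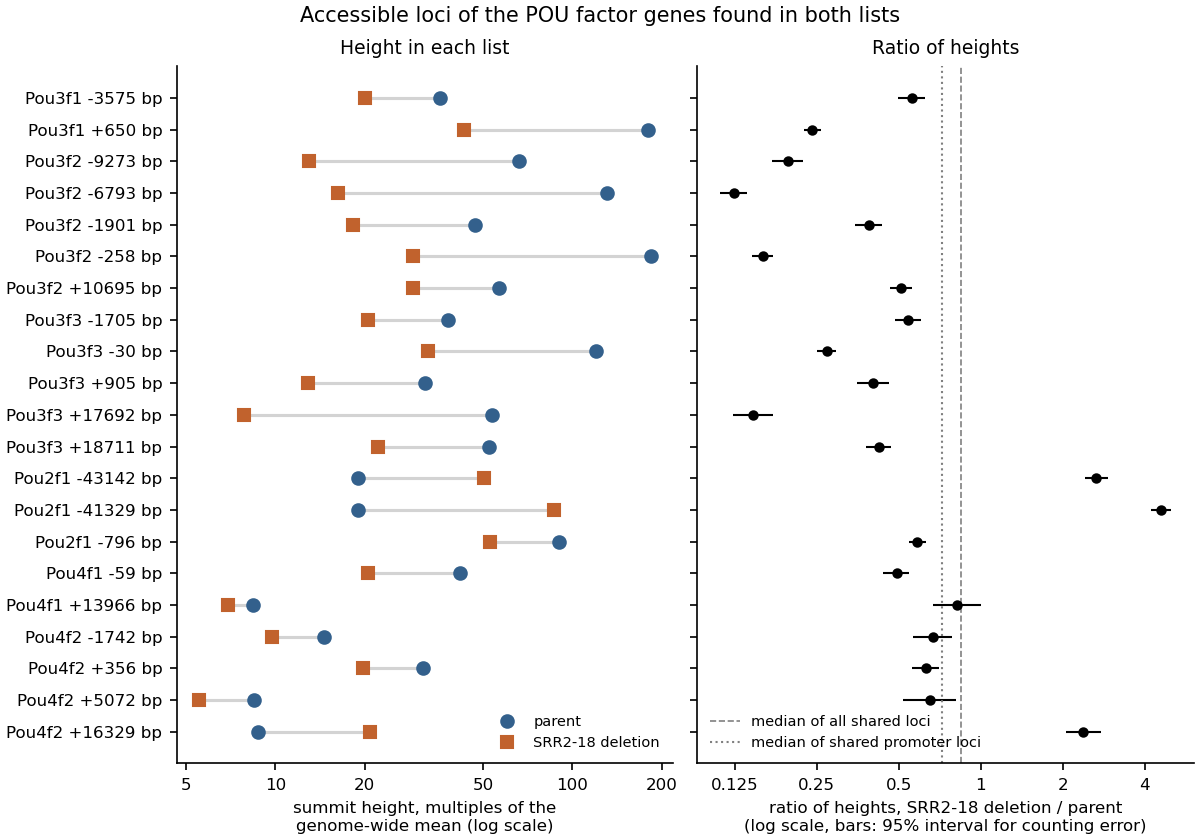
Summit heights (left, multiples of the genome-wide mean of each list, log scale) and their ratio (right, ΔSRR2-18 over parent, log scale, bars for the 95% interval of counting error) at the 21 loci of the 6 POU genes open in both lists, each named by gene and distance of the parent summit from the TSS. All 12 loci of Pou3f1, Pou3f2 and Pou3f3 lie left of both median lines. The 3 loci above 2, a class that took 15.8% of all shared loci, belong to Pou2f1 and Pou4f2.

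The lowest ratio of all was 6793 bp upstream of Pou3f2 (chr4:22494888-22495386), in intergenic DNA. This region had 5101 reads and a height of 131 in the parent list against 320 reads and a height of 16.3 in the ΔSRR2-18 list, a ratio of 0.124 (0.110–0.139), and the summits of both lists were within a few bases of each other. Its sequence above holds the SOX motif on the minus strand, 25 bp from the parent summit. A second upstream Pou3f2 region at -9273 bp had a ratio of 0.196 (0.171–0.222), and the one downstream of the gene at 10695 bp had a ratio of 0.511 (0.465–0.560). At both, the summits of the lists lay farther apart, with those of the ΔSRR2-18 list at -9654 bp and 11265 bp. The second lowest ratio, 0.146 (0.124–0.173), was 17692 bp downstream of the Pou3f3 start (chr1:42713142-42713960), 6 bp from the start of Pantr2, a noncoding gene beside Pou3f3. There the height was 53.5 in the parent list and 7.83 in the ΔSRR2-18 list.

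Fold enrichment, the score that the peak caller gives against the local background, did not show these differences. At the Pou3f2 start it was 8.97 in the parent list and 6.48 in the ΔSRR2-18 list, and at the Pou3f3 start it was 6.83 in the parent list and 7.71 in the ΔSRR2-18 list. By fold enrichment 0 of the 21 shared loci were at least 2-fold lower in ΔSRR2-18 NSPCs (7.37% of all shared loci) and 4 were at least 2-fold higher (10.1% of all shared loci), 2 of them at class III genes, where 5 of 12 loci were below 1. The local background in its denominator, taken from the same libraries around the summit, itself differed between the lists. It was 20.5 times the genome-wide mean under the Pou3f2 start in the parent list and 4.45 times in the ΔSRR2-18 list. The highest value at a Pou3f2 region of the parent list was 26.3 times the mean, at or above which lay 0.0434% of all parent regions, and the highest of the ΔSRR2-18 list was 4.53 times the mean, at or above which lay 13.8% of all ΔSRR2-18 regions. At Pou3f3 the corresponding maxima were 17.8 and 4.20, and at Pou3f1 14.5 and 5.49. With heights scaled by the median of shared promoter loci instead, 6 of 21 loci were at least 2-fold lower (7.39% of all shared loci), and all 6 were at class III genes.

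**Figure D2:**
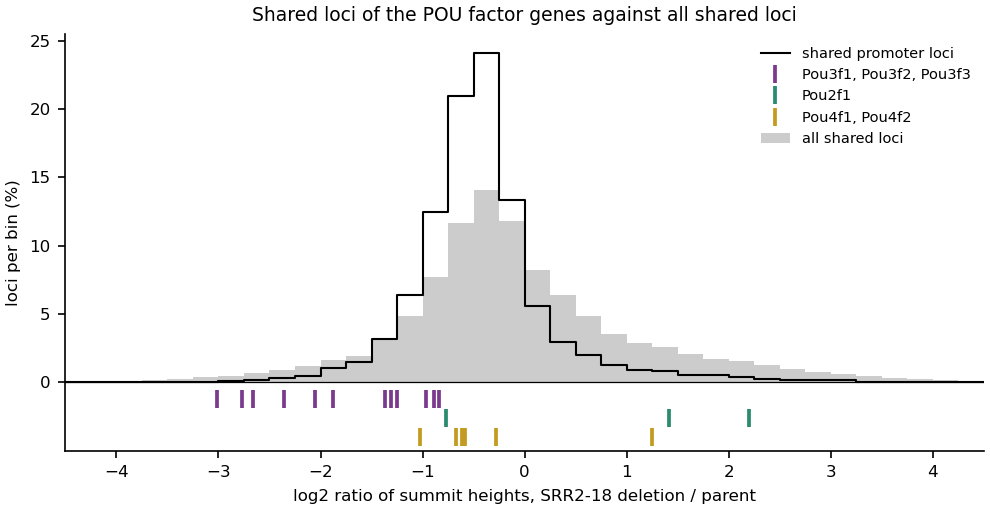
Distribution of the log2 ratio of summit heights, ΔSRR2-18 over parent, in bins of 0.25, as a percentage of all 39072 shared loci (grey bars) and of the 12545 shared promoter loci (line), with the 21 loci of the POU genes as ticks under the axis. The 12 ticks of Pou3f1, Pou3f2 and Pou3f3 all lie below 0, while the ticks of Pou2f1 and of Pou4f1 and Pou4f2 lie on both sides.

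In numbers of regions the 6 genes together did not stand apart in the parent list. Of their 44 parent regions, 23 overlapped no ΔSRR2-18 region (52.3%; 95% Wilson interval, 37.9–66.2), and of all parent regions 52.3% did not. Of their 37 ΔSRR2-18 regions, 16 overlapped no parent region (43.2%; 28.7–59.1), against 63.1% of all ΔSRR2-18 regions. Of the 23 and the 16, 21 and 14 were also missing from the optimal list of the other genotype, a second list that the pipeline derives from the same reads. In the parent list, 47.7% of the member regions and 49.0% of all regions were missing from both ΔSRR2-18 lists. In the ΔSRR2-18 list, 37.8% of the member regions and 61.1% of all regions were missing from both parent lists.

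By class, the class III genes had 25 regions in the parent list, 13 of them in that list alone (52.0%, near the 52.3% of all parent regions), and 16 in the ΔSRR2-18 list, 4 of them in that list alone (25.0%, against 63.1% of all ΔSRR2-18 regions). The class IV genes had 7 parent regions, 1 of them in that list alone (14.3%), and 13 ΔSRR2-18 regions, 7 of them in that list alone (53.8%, below the 63.1% of all). Pou2f1 had 12 parent regions, 9 of them alone (75.0%), and 8 ΔSRR2-18 regions, 5 of them alone (62.5%). When regions were assigned among the start sites of all annotated genes, noncoding ones included, the class III genes had 2 regions in each list alone, so the split of 13 against 4 rests on regions whose nearest start site belongs to another gene.

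**Figure D3:**
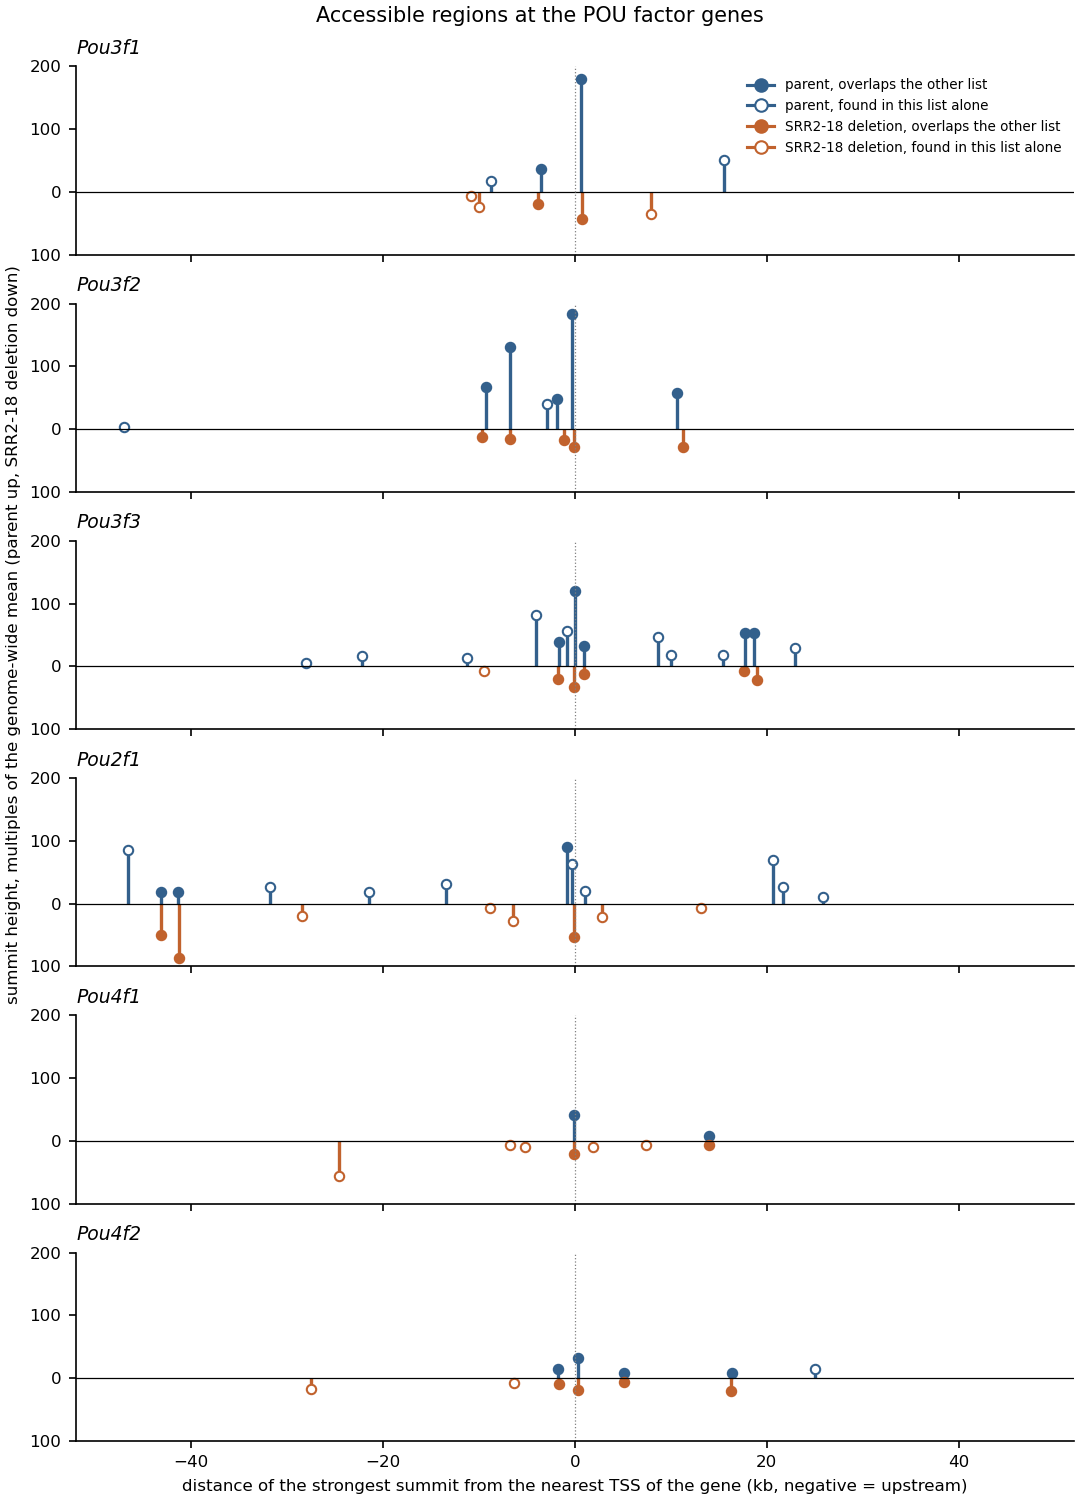
Accessible regions at the 6 POU genes by distance of the strongest summit from the nearest TSS of the gene (kb), with summit height in multiples of the genome-wide mean, upward for parent NSPCs and downward for ΔSRR2-18 NSPCs. Filled points overlap a region of the other list and open points were found in one list alone; the tallest bars, near 180, are the parent start sites of Pou3f1 and Pou3f2, and Pou4f1 has open points in the ΔSRR2-18 list only.

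Most of the class III regions of the parent list alone were at Pou3f3. This gene had 14 parent regions, 9 of them in that list alone (of all parent regions, 52.3% were), and 6 ΔSRR2-18 regions. As many as 14 parent regions were reached by 1.1% of 21924 protein-coding genes, with noncoding start sites left out. With start sites of all annotated genes, Pou3f3 kept 1 region of the parent list alone. Of the 9 in the parent list alone, the tallest was 4006 bp upstream (chr1:42691506-42691937, height 81.6), in an intron of the noncoding gene Pantr1. A further one stood 831 bp upstream (chr1:42694617-42695173, height 55.7) in an exon of the annotated gene AC122898.1, and another 8658 bp downstream (chr1:42703493-42704754, height 46.0). The heights of the 9 ran from 5.12 to 81.6 with a median of 18.8. In the ΔSRR2-18 list 10% of all regions had a height below 7.12, and 8 of the 9 stood above that height. The peak caller scores against local background, so this height is not a limit of detection. The fold enrichments of the 9 ran from 2.63, at 15465 bp, to 15.1, at -22190 bp, and the region at -831 bp had 3.13. The 1 Pou3f3 region of the ΔSRR2-18 list alone was 9427 bp upstream, with a height of 7.78.

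Pou3f2 had 7 parent regions and 5 ΔSRR2-18 regions, and 0 of the latter were in the ΔSRR2-18 list alone. Its 2 regions of the parent list alone had heights of 39.1, at -2906 bp in an intron of Gm30731, and 3.76, at -46989 bp. The latter was the farthest from a start site of all 81 regions and had the lowest height. The -2906 bp region had a fold enrichment of only 1.49, over a local background 26.3 times the genome-wide mean. At least that fold enrichment was found in 99.996% of parent regions. With an IDR score of at least 830 in both lists, Pou3f2 had 0 regions of the parent list alone.

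Pou3f1 was mixed. Its 2 regions of the parent list alone lay at 15589 bp (chr4:124672099-124672900, height 49.8) and -8737 bp (height 17.6). Its 3 regions of the ΔSRR2-18 list alone lay at 7956 bp (chr4:124664438-124664989, height 36.2), -9990 bp (height 24.0) and -10844 bp (height 7.32). The one at 7956 bp had a fold enrichment of 21.6, in the top 8.36% of its list, and its sequence above holds the AP-1 motif 38 bp and the HOX-PBX motif 14 bp from the summit. Of these 3 regions, 2 overlapped a region of the optimal parent list and were higher in ΔSRR2-18 NSPCs there. At 7956 bp the parent height was 3.58, a ratio of 10.1 (8.43–12.2), and at -9990 bp it was 7.16, a ratio of 3.35 (2.88–3.90).

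By fold enrichment, Pou2f1 held the strongest region of each list alone. By height, the tallest region of the parent list alone was at Pou2f1 -46602 bp (85.5), while its -13437 bp region reached 31.9. The tallest of the ΔSRR2-18 list alone was at Pou4f1 -24639 bp (56.1), above the 27.9 of Pou2f1 -6490 bp. By fold enrichment all 5 strongest members of the parent list alone were at Pou2f1. Of these, 4 were in its introns, at -13437 bp (fold enrichment 25.3, in the top 1.58% of its list), -31741 bp (20.7), 20605 bp (18.8) and -251 bp (16.2), each counted from an internal start site, and 1 was upstream of the gene at -21490 bp (18.5). The region at -251 bp (chr1:165934603-165935880) sits at an alternative start site inside the gene and had 2418 reads, a height of 62.2. The 20605 bp region (chr1:165914041-165914792) was higher, at 69.6. Both the -13437 bp and the -251 bp sequences above hold ATGCAAAT at or within 2 bp of the summit.

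The 5 Pou2f1 regions of the ΔSRR2-18 list alone had heights from 6.77 to 27.9. The strongest, at -6490 bp (chr1:166008828-166009611), had a fold enrichment of 26.6, in the top 1.65% of its list, and none of the 4 motifs. Farther upstream were 2 of the 3 loci at which ΔSRR2-18 NSPCs were at least 2-fold higher, next to the annotated gene Gm7626. The locus at -41329 bp (chr1:166043723-166044241) had a height of 18.9 in the parent list and 86.8 in the ΔSRR2-18 list, a ratio of 4.58 (4.20–5.00), and the locus at -43142 bp had heights of 19.0 and 50.5, a ratio of 2.66 (2.41–2.93). Over all 6 genes, 3 of 21 shared loci were at least 2-fold higher (14.3%; 95% Wilson interval, 4.98–34.6), beside the 15.8% of all shared loci. Another region a few kilobases away, at -46602 bp (chr1:166048278-166049840, height 85.5), was in the conservative parent list alone but overlapped a region of the optimal ΔSRR2-18 list. In that list the height was 13.6, a ratio of ΔSRR2-18 to parent of 0.159 (0.140–0.181).

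At Pou4f1 and Pou4f2 the start site was lower in ΔSRR2-18 NSPCs. The ΔSRR2-18 list held more regions around Pou4f1, 7 against 2, and 6 against 5 around Pou4f2. That list was also the longer one, with 107480 regions against 82885 in the parent list. Pou4f1 had 2 parent regions, both also open in ΔSRR2-18 NSPCs, and 7 ΔSRR2-18 regions. The 5 in the ΔSRR2-18 list alone had a median height of 9.51, and 1 of them stood out with a height of 56.1 and a fold enrichment of 26.1, at -24639 bp (chr14:104492344-104492862) in an intron of the neighbouring gene Rnf219. Its AP-1 motif lies 73 bp from the summit. All 5 were missing from the optimal parent list as well, and 61.1% of all ΔSRR2-18 regions were missing from both parent lists. At Pou4f2, 4 of 5 parent regions and 4 of 6 ΔSRR2-18 regions were shared. The locus 16329 bp downstream of its start (chr8:78419885-78420752) had a height of 8.75 in the parent list and 20.9 in the ΔSRR2-18 list, a ratio of 2.38 (2.06–2.76), and the other 3 shared loci had ratios from 0.628 to 0.668. Its 2 regions of the ΔSRR2-18 list alone were at -27482 bp (fold enrichment 16.5) and -6339 bp (7.36).

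Motifs were searched within 100 bp of the strongest summit on both strands, as whole words. The POU motif ATGCNAAT was in 2 of 44 parent regions (4.55%; 4.16% of all parent regions) and 0 of 37 ΔSRR2-18 regions (2.28% of all), and both carriers were the Pou2f1 regions named above. The SOX motif ACAATGG was in 1 region of each list, both at the Pou3f2 locus 6.8 kb upstream (4.43% of all parent and 2.47% of all ΔSRR2-18 regions). The AP-1 motif TGACTCA was in 1 of 44 parent regions (5.13% of all) and 5 of 37 ΔSRR2-18 regions (13.5%; 31.0% of all). The HOX-PBX motif TGATTNAT was in 2 of 44 parent regions (2.16% of all) and 3 of 37 ΔSRR2-18 regions (7.60% of all). Among the 16 ΔSRR2-18 regions found alone, 3 held AP-1 (18.8%), a motif that 41.6% of all such regions held. GC content over the same windows had a median of 46.8% in those 16 regions and 45.8% in all regions of the ΔSRR2-18 list alone. A match is a description of the letters and not evidence of binding.

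The other 9 POU genes were read in the same way. They had 18 parent regions, 8 of them in that list alone (44.4%, against 52.3% of all parent regions). Of their 23 ΔSRR2-18 regions, 13 were in that list alone (56.5%, against 63.1% of all ΔSRR2-18 regions). Their 10 shared loci had a median ratio of 0.985. Of these, 1 was at least 2-fold lower (16.0% of all shared loci) and 1 at least 2-fold higher (15.8% of all shared loci). Pou5f1 (Oct4), the pluripotency factor, had 0 regions in both lists. Pou3f4, the remaining class III gene, did not share the direction of its paralogs. Its TSS region had a height of 14.3 in the parent list and 31.8 in the ΔSRR2-18 list, a ratio of 2.22 (1.98–2.49). Pou2f2 had a promoter ratio of 1.12 (1.02–1.22), Pou6f1 of 0.651 (0.594–0.712) and Pou2f3 of 0.561 (0.506–0.621). Pou4f3, the remaining class IV gene, had a ratio of 1.97 (1.64–2.36) at a low TSS region, with heights of 6.41 in the parent list and 12.6 in the ΔSRR2-18 list, and so was higher where Pou4f1 and Pou4f2 were lower.

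**Figure D4:**
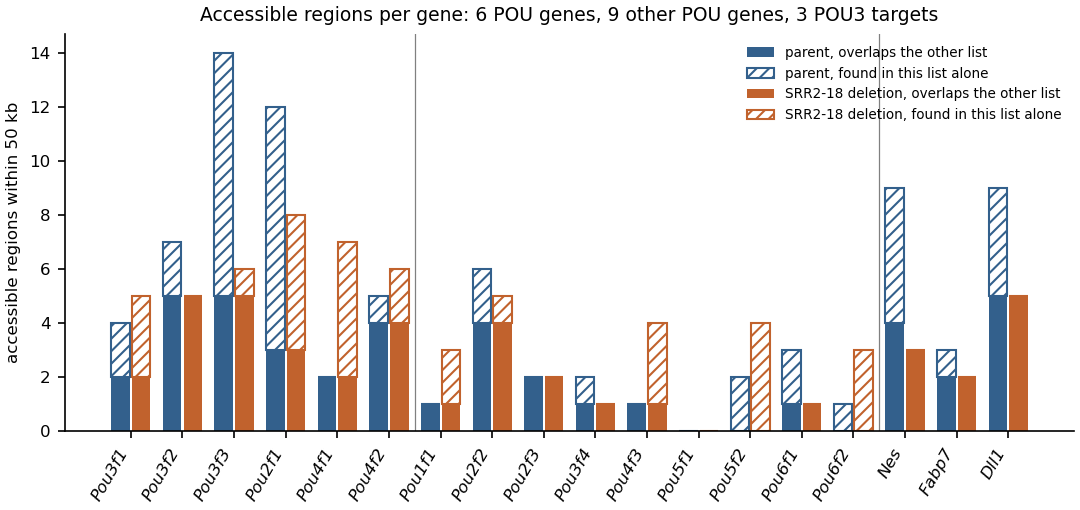
Accessible regions with their strongest summit at most 50 kb from each gene, as stacked bars for the parent and ΔSRR2-18 lists, with solid bars for regions that overlap the other list and hatched bars for those found in one list alone. Pou3f3 has 14 parent and 6 ΔSRR2-18 regions, Pou4f1 has 2 and 7, and Nes, Fabp7 and Dll1 have no hatched bar in the ΔSRR2-18 list.

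Of the genes that class III factors are known to bind in neural progenitors, 3 were read as well. These were Nes (an intermediate filament of progenitors), Fabp7 (a lipid-binding protein of radial glia) and Dll1 (a Notch ligand). Together they had 21 parent regions, 10 of them in that list alone (47.6%, below the 52.3% of all parent regions). Of their 10 ΔSRR2-18 regions, 0 were in that list alone, against 63.1% of all ΔSRR2-18 regions. Their 10 shared loci had ratios from 0.0845 to 1.82 with a median of 0.379. Of these loci, 6 were at least 2-fold lower in ΔSRR2-18 NSPCs, as were 16.0% of all shared loci. The ratio at the start site was 0.570 (0.531–0.612) for Nes, 0.240 (0.217–0.265) for Fabp7 and 0.202 (0.182–0.223) for Dll1, whose parent region overlapped the TSS region of the ΔSRR2-18 list but had its own strongest summit more than 1 kb away.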

How the data were processed

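ATAC-seq reads of 3 cultures per genotype were processed by the authors with the ENCODE ATAC-seq pipeline (v1.10.0), with MACS2 for peak calling and IDR across replicates. The submitters' processing notes name mm10 and deepTools. The authors deposited a conservative and an optimal peak list per genotype. Each line of the deposited lists holds a score scaled from the IDR, the ratio of summit reads to local background (fold enrichment), a −log10 p, a −log10 q (not used) and a summit offset in bases. The lists pool cultures, so no test was run.

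The conservative lists gave the main values. A region was a distinct interval, placed by its summit of highest fold enrichment against GENCODE M21 basic start sites (Python 3.11.15, numpy 2.4.6, pandas 2.3.3, scipy 1.17.1, matplotlib 3.10.9). Sharing meant an overlap of at least 1 bp. Summit reads x and local background b were solved from fold enrichment, (x + 1)/(b + 1), and the Poisson p, and were whole within 0.05 reads for 99.999% of parent summits. They are pileups, not distinct fragments. The recovery, overlap and motif steps were tested on simulated data. A promoter was a region with its strongest summit within 1 kb of a TSS. Height was divided by the lowest background of its list, so ratios depend on that scaling.

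The named regions were the TSS regions, the 5 strongest by fold enrichment in each list alone, and the 3 highest and 3 lowest ratios; further regions were added after their values were seen. The genes, lists and motifs were chosen with earlier results of these data known. The farthest member lay 46989 bp from its start site (fold enrichment 3.69), and the nearest region beyond the limit lay 53644 bp away, at Pou2f1 (5.85). The alternatives were the optimal lists, stricter IDR and p thresholds, equal list lengths, other distance and overlap rules, start sites of all gene types, other height scalings and other motif settings.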

Additional observations from a re-analysis of the deposited data

How the results depend on the processing

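No paired analysis was possible because each list pools the 3 cultures of a genotype, and no culture could be left out for the same reason. Counts of regions depended most on how regions were assigned to genes. With a limit of 10 kb, the parent list held 21 regions, 7 of them in that list alone (33.3%, against 52.3% of all). The ΔSRR2-18 list held 25, 11 of them alone (44.0%, against 63.1% of all). This reversed the order of both pairs of counts, while the ΔSRR2-18 share stayed below that of all regions. With start sites of all annotated genes, the parent list held 18 regions and the ΔSRR2-18 list 19, with 8 in each list alone. These were 44.4% in the parent list (52.3% of all) and 42.1% in the ΔSRR2-18 list (63.1% of all). The counts fell since regions near genes such as Pantr1, Pantr2, Gm30731 and Gm7626 went to those genes. With the longer list shortened to the length of the other by fold enrichment, the ΔSRR2-18 list held 23 regions. The count of shared loci at least 2-fold higher in ΔSRR2-18 NSPCs was 5 in the optimal lists, 2 of them at Pou3f1. The count at least 2-fold lower was 6 with heights scaled by shared promoter loci and 0 by fold enrichment over local background, whose denominator was itself higher in parent NSPCs at the class III genes. The IDR score of at least 830, scaled p, overlap and motif settings left the counts within 1.5 times. Merging overlapping regions within a list could change nothing, because the regions of a list did not overlap one another. The 11 settings for region counts include the reported one and the merging, which cannot differ from it. Under all 11, class III regions of the parent list alone were at least as many as those of the ΔSRR2-18 list alone. They were equal, at 2 each, with start sites of all genes. At the ΔSRR2-18 depth a genome-wide mean of 19.7 reads limits the weakest regions.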

Other observations

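The optimal lists held a few regions at these genes that overlapped no conservative region of either genotype. There were 3 in the parent list, 2 of them at Pou2f1 and 1 at Pou4f2, 653 bp upstream of its start (height 6.80), and 1 in the ΔSRR2-18 list, 29802 bp downstream of the Pou4f2 start (height 4.98).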
